A study of Mus musculus with 6 samples.

Results

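The miR-30 family was followed in T cells of the mouse, comparing natural regulatory T cells (CD4+CD25+) with conventional T cells (CD4+CD25-). Its members are the 5 probes with the IDs 1org-30a, 1org-30b, 1org-30c, 1org-30d and 1org-30e, of 171 miRNA probes and 178 probes in all, and are called miR-30a to miR-30e here. Each of 6 two-colour arrays held total RNA of both populations, and the series describes 3 biological replicates, each also run with the dyes swapped. CD4+CD25+ RNA was labelled with Cy5 on arrays 1, 3 and 5 and with Cy3 on arrays 2, 4 and 6. The labels give no strain, age, sorting gate or culture, and they do not say which arrays form a pair or whether replicates came from separate animals, so the spread behind each p-value is that of these samples only and may be technical. No probe for a messenger RNA such as Foxp3 or Il2ra is on the array, so the identity of the populations rests on their labels.

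MicroRNAs (miRNAs) are small RNAs that guide Argonaute proteins to messenger RNAs, mainly through the seed, the bases next to their 5′ end, and lower the output of those messages. The miR-30 family is expressed in many tissues and is known for holding down the autophagy gene Becn1 and Snai1, a factor that drives epithelial cells towards a mesenchymal state. In lymphocytes it is often counted among the miRNAs of resting cells.

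RefSeq (GRCm38.p6) gave a mature 5p sequence for 3 of the 5 members, shown because the shared seed is what joins the family; the seed, bases 2 to 8 from the 5′ end, is in capitals.
miR-30a-5p: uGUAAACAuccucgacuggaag
miR-30c-5p: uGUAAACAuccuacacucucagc
miR-30e-5p: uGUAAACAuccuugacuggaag
miR-30b and miR-30d are named only. Counted from 1 at the 5′ end, miR-30a-5p and miR-30e-5p were identical at 21 of 22 positions and differed by C13U. Each was identical to miR-30c-5p at 17 of 22 positions, with the first difference at position 13. Cross-hybridisation between such close sequences was not tested, so the member probes may not be independent measurements. Of 1679 mature miRNA names in the table, 4 carried the seed GUAAACA (0.238%): these 3 and miR-384-5p, for which there is no probe on the array.

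The array also carries a probe named 30a*, for the other arm of the miR-30a hairpin. Older names gave the asterisk to the less abundant arm, not to a fixed side, and the sources used here do not say which arm the 30a and 30a* probes hold. The 3p arm, shown because either probe may hold it, does not carry the family seed.
miR-30a-3p: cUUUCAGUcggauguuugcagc
Mir30b and Mir30d are neighbours in the RefSeq gene table, as are Mir30c-1 and Mir30e, and Mir30a and Mir30c-2. Both Mir30c genes give the same mature 5p sequence, so the miR-30c probe cannot tell them apart.

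Every value below is a log2 ratio in which CD4+CD25+ cells stand over CD4+CD25- cells, with the sign of arrays 2, 4 and 6 turned. The deposited ratio was read as Cy5 over Cy3 and as log2; neither is stated in the sources used here, and a ratio of Cy3 over Cy5 would turn each sign. Nor is it stated whether the authors had already turned the swapped arrays. If they had, the values would be 0.48 for miR-30b, 0.39 for miR-30c, 0.33 for miR-30d, -0.67 for miR-30e and -0.74 for miR-30a, and miR-30a alone of the 5 would pass, as lower (limma adjusted p = 0.0170; 51.5% of all probes lower). The miR-223 probe, highest of the 171 in mean ratio, stood at 2.93 to 4.99 on 6 of 6 turned arrays. As deposited, its sign was thus opposite in the 2 dye orientations. The turned arrays of opposite dye correlated only between -0.251 and 0.369 over the 171 miRNA probes, against 0.521 to 0.622 among the arrays with CD4+CD25+ in Cy5 and 0.901 to 0.918 among those with it in Cy3. Errors are SDs over 3 replicates, each the mean of 2 arrays of opposite dye, and of the 6 possible pairings the one with the largest SD, or the largest adjusted p, is given. limma's largest standard error was 0.271 for each member, because it pooled the variance over all probes, so the p-values do not follow from the SDs beside them. A probe passed when its limma adjusted p, Benjamini-Hochberg over the 171 miRNA probes, was under 0.05 in all 6 pairings.

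The values also depend on where an array's zero is set. With the swapped arrays turned and no centring, the median miRNA probe stood at 0.82, with array medians of -0.085, -0.31 and 0.097 on arrays 1, 3 and 5 and of 1.83, 1.29 and 1.82 on arrays 2, 4 and 6. Probes for miRNAs of other tissues (29 probes, for embryonic stem cells, liver, muscle, epithelium and the nervous system) stood at a median of 0.86. U6 and the tRNA probes had array means of -0.49 to -0.76 on 5 arrays, below those arrays' medians, and of 0.52 on array 3, above its median. Where the zero of equal amounts lies is not stated.

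miR-30b, miR-30c and miR-30e, 3 of the 5 members, were lower in CD4+CD25+ cells, and miR-30d and miR-30a did not pass in all 6 pairings. The true pairing is not known, and in the most favourable one miR-30d would pass as lower (limma adjusted p = 0.0297) and miR-30a as higher (limma adjusted p = 0.0252). Over all miRNA probes 15 of 171 were lower (8.77%) and 115 higher (67.3%). The family median was -0.57, beside a median of 0.82 for all 171 probes. Relative to the median miRNA probe of each array, 4 of the 5 were lower, with miR-30d added, where 22.8% of all probes were lower.

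miR-30b, which shares its locus with miR-30d, had the lowest mean ratio of the 171 miRNA probes. Its log2 ratio was -1.08, -0.26 and -1.21 on arrays 1, 3 and 5, and -1.31, -2.54 and -1.56 on arrays 2, 4 and 6. All 6 arrays were below 0, as for 8.77% of all probes, and array 3 was nearest to 0 and array 4 farthest. The 3 arrays with CD4+CD25+ in Cy3 were below the 3 in Cy5. How many of all probes likewise had no overlap between the orientations was not counted. The mean was -1.33 ± 0.544 (SD, n = 3), or 2.51-fold lower (limma adjusted p = 0.00411). In each of the other zero points it passed as well, at -2.10 ± 0.517 relative to the array median (limma adjusted p = 3.7e-05), -2.24 relative to the off-tissue probes (limma adjusted p = 7.05e-05) and -0.86 relative to U6 and the tRNAs (limma adjusted p = 0.0471).

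miR-30c, made from 2 genes, came next within the family. Its log2 ratio was -0.34, -0.096 and -0.63 on arrays 1, 3 and 5, and -0.75, -1.56 and -1.08 on arrays 2, 4 and 6. All 6 were below 0, and as for miR-30b the arrays with CD4+CD25+ in Cy3 lay lower, with array 4 the lowest. How many of all probes do so was not counted here either. The mean was -0.74 ± 0.338 (SD, n = 3), or 1.67-fold lower (limma adjusted p = 0.0106). Relative to the array median it was -1.51 ± 0.317 (limma adjusted p = 9.13e-05), and relative to U6 and the tRNAs it did not pass, at -0.28 (limma adjusted p = 0.568).

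miR-30d, the neighbour of miR-30b, had -0.29, -0.056 and -0.030 on arrays 1, 3 and 5, and -0.54, -1.44 and -0.36 on arrays 2, 4 and 6. It too was below 0 on every array, but 2 of the 6 values were within 0.1 of 0. Its mean of -0.45 ± 0.361 (SD, n = 3) did not pass without centring (limma adjusted p = 0.114; widest 95% interval -0.98 to 0.080). It passed as lower relative to the array median, at -1.23 ± 0.252 (limma adjusted p = 0.000178). Relative to U6 and the tRNAs it stood at 0.014, with no clear direction (limma adjusted p = 0.982; widest 95% interval -0.79 to 0.81). Whether miR-30d was lower thus depends on the zero point.

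miR-30e, whose gene neighbours Mir30c-1, behaved differently with the dye. Its log2 ratio was -1.35, -1.51 and -0.86 on arrays 1, 3 and 5, and -0.13, -0.36 and 0.79 on arrays 2, 4 and 6. The dye orientations did not overlap, and the sign on array 6 was opposite to that on the other 5. The array medians ran the same way, at -0.31 to 0.097 on arrays 1, 3 and 5 and 1.29 to 1.83 on the others. The share of all probes without overlap was not counted. The miR-30e mean was -0.57 ± 0.473 (SD, n = 3), or 1.48-fold lower, and passed narrowly (limma adjusted p = 0.0473). On the 3 arrays with CD4+CD25+ in Cy5 it had the lowest mean of the 171 probes, -1.24, and on the others its mean was 0.099. Relative to the array median, miR-30e was the only member below 0 on 6 of 6 arrays (7.6% of all probes), with -1.34 ± 0.315 (limma adjusted p = 0.000204).

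The miR-30a probe stood apart from the other members. Its log2 ratio was -0.11, -0.23 and -0.49 on arrays 1, 3 and 5, and 1.17, 1.03 and 1.40 on arrays 2, 4 and 6. The sign followed the dye on all 6 arrays, a pattern found in 30 of the 171 probes (17.5%). Its mean of 0.46 ± 0.189 (SD, n = 3) did not pass (limma adjusted p = 0.110; widest 95% interval -0.073 to 0.99), and it turned to -0.31 ± 0.278 relative to the array median, again without passing (limma adjusted p = 0.248). Relative to U6 and the tRNAs it passed as higher, at 0.93 (limma adjusted p = 0.0323), where 73.7% of all probes were higher.

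The probe of the other arm, 30a*, had 0.16, 0.23 and 0.80 on arrays 1, 3 and 5, and -0.027, -0.63 and 0.21 on arrays 2, 4 and 6. Its mean was 0.12 ± 0.369 (SD, n = 3; limma adjusted p = 0.659), and it passed as lower relative to the array median, at -0.65 (limma adjusted p = 0.0104). The 30a probe exceeded the 30a* probe by 0.34 ± 0.371, less than the spread between replicates, with 3 arrays on either side of 0. In the miR-30a probe the ratio was higher with CD4+CD25+ in Cy3, and in the 30a* probe with it in Cy5.

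**Figure D1:**
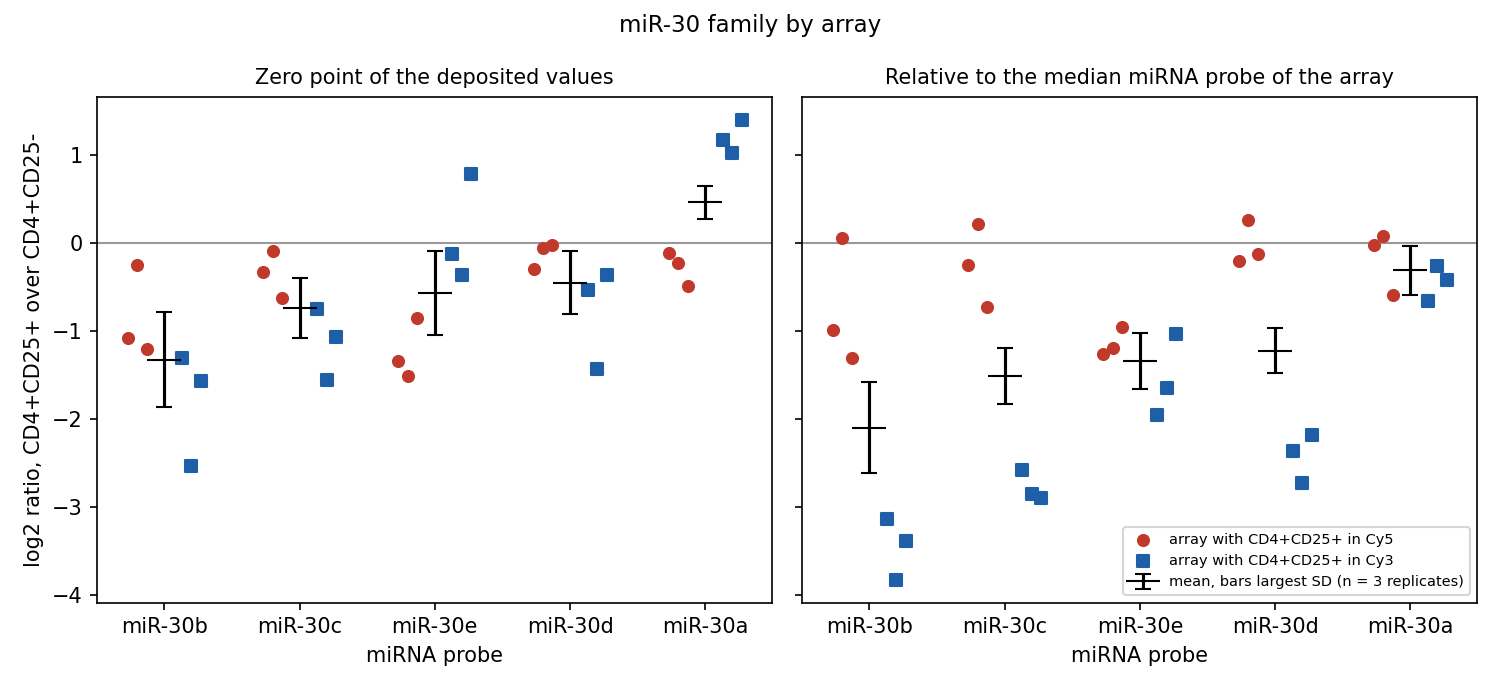
Log2 ratio (CD4+CD25+ to CD4+CD25-) for the 5 miR-30 probes (x axis) on each of the 6 arrays, at the deposited zero point (left) and relative to the median miRNA probe of the array (right); circles are arrays with CD4+CD25+ in Cy5, squares in Cy3, and black lines the mean with the largest SD over 3 replicates. At the left miR-30b, miR-30c and miR-30d lie below 0 on 6 of 6 arrays and the miR-30a squares lie at 1.03 to 1.40; at the right the squares of miR-30b, miR-30c and miR-30d fall well below their circles.

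The dye orientations divided the family. On the turned values without centring, miR-30b, miR-30c and miR-30d had lower means with CD4+CD25+ in Cy3, at -1.81, -1.13 and -0.78 against -0.85, -0.35 and -0.13 with it in Cy5. miR-30a and miR-30e ran the other way. A dye effect, the mean of the ratios of a pair before turning, passed for 91 of 171 probes, 88 brighter in Cy3 (51.5%) and 3 brighter in Cy5 (1.75%). Of the members, miR-30a passed, at -0.74 ± 0.192 (brighter in Cy3; limma adjusted p = 0.0170), and miR-30e at -0.67 ± 0.453 did not (limma adjusted p = 0.0526). The miR-30e dye effect did pass with equal median absolute deviations, at -0.76 (limma adjusted p = 0.0155), and when the 6 arrays were fitted as 6 values (limma adjusted p = 0.0101). miR-30b, miR-30c and miR-30d had 0.48, 0.39 and 0.33 and did not pass (limma adjusted p = 0.0899 to 0.246).

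Centring each array on its median moved the dye effect from one set of members to the other. miR-30b, miR-30c and miR-30d then passed as brighter in Cy5, with 1.35, 1.26 and 1.20 (limma adjusted p = 0.000259 to 0.000279), where 34.5% of all probes did, while miR-30a at 0.14 and miR-30e at 0.20 did not (limma adjusted p = 0.627 and 0.444). The centred ratios of miR-30b, miR-30c and miR-30d were thus -0.75, -0.25 and -0.026 with CD4+CD25+ in Cy5 and -3.45, -2.77 and -2.42 with it in Cy3. The centred difference of miR-30d comes almost wholly from arrays 2, 4 and 6. That of miR-30e was closest to even of the 4 members that passed, at -1.14 and -1.55.

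**Figure D2:**
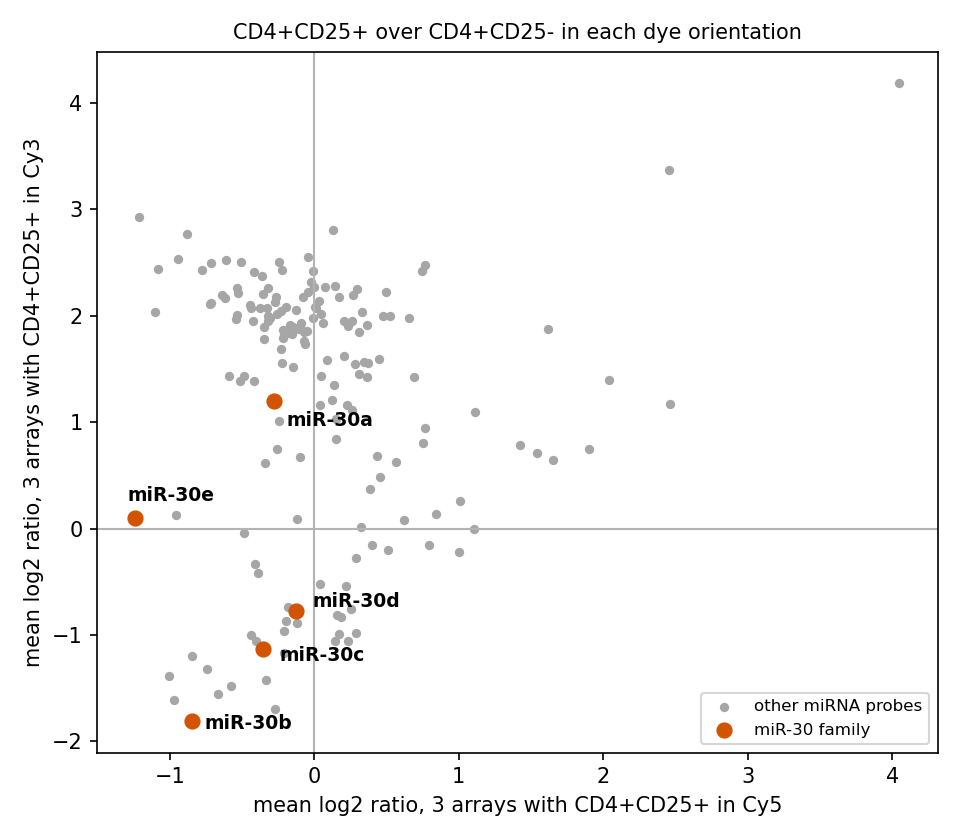
Mean log2 ratio of each of the 171 miRNA probes over the 3 arrays with CD4+CD25+ in Cy5 (x axis) and over the 3 with it in Cy3 (y axis), with the miR-30 family in orange. miR-30b, miR-30c and miR-30d lie below 0 on both axes, miR-30e at -1.24 on the x axis and 0.099 on the y axis, and miR-30a at -0.28 and 1.20 beside the bulk of probes.

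Members were then compared with each other within each array, where a zero point shared by all probes cancels. Of the 10 pairs, 5 kept one sign on 6 of 6 arrays and 7 differed by more than the SD between replicates. How often pairs of other miRNA probes do the same was not counted, so these counts are not a trait particular to the family. With 3 replicates the smallest two-sided p of an exact sign-flip test is 0.25, and no such test was run. miR-30b lay below its neighbour miR-30d by 0.87 ± 0.355 (SD, n = 3), or 1.83-fold, on 6 of 6 arrays. It lay below miR-30c by 0.58 ± 0.267, also on 6 of 6 arrays. miR-30c lay below miR-30d on 6 of 6 arrays, but by 0.29 ± 0.319, within the spread. The order miR-30b, miR-30c, miR-30d therefore held on every array, in both dye orientations.

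miR-30e had no fixed place in that order. It lay below miR-30b on 2 arrays and above it on 4, and against miR-30c and against miR-30d it was lower on 3 arrays and higher on 3. The mean differences from miR-30c (0.17 ± 0.610) and from miR-30d (0.12 ± 0.359) were within the spread. With CD4+CD25+ in Cy5 miR-30e lay below miR-30d by 1.11, and with it in Cy3 above it by 0.88. The miR-30a probe exceeded miR-30e by 1.03 ± 0.467 on 6 of 6 arrays, at 0.96 and 1.10 in the 2 orientations. It exceeded miR-30b by 1.79 ± 0.510 on 6 of 6 arrays, although by as little as 0.023 on one of them. Against miR-30c the miR-30a probe was higher on 5 arrays and against miR-30d on 4.

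The mean of miR-30b and miR-30c lay below the mean of miR-30a, miR-30d and miR-30e by 0.85 ± 0.414 (SD, n = 3), on 5 of 6 arrays. The difference was -0.053 with CD4+CD25+ in Cy5 and -1.64 with it in Cy3, so its size rests on arrays 2, 4 and 6. Without the miR-30a probe it was -0.52 ± 0.478, on 4 of 6 arrays. The grouping was meant to follow mature sequence, but the sequences of miR-30b and miR-30d were not available here. As miR-30b and miR-30c also had the lowest mean ratios of the family, a mean difference below 0 was fixed by the grouping. It is no evidence for a split of the family.

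The zero point and the scale of the arrays set how many members passed. With the median or the off-tissue probes as zero, 4 of 5 were lower (22.8% of all probes under each). With U6 and the tRNAs as zero, 1 of 5 was lower, and miR-30b was the 1 probe so called of 171 (0.585%). Equal median absolute deviations left the same 3 members lower as at the deposited zero point and scale, and 9.36% of all probes. Equal median absolute values, which give arrays 1, 3 and 5 more weight, left miR-30e as the 1 member lower (-1.13, limma adjusted p = 0.0333; 2.34% of all probes), and miR-30b at -1.35 did not pass (limma adjusted p = 0.0726). In the arrays with CD4+CD25+ in Cy5 alone miR-30e passed as lower and the other 4 did not (4.09% of all probes lower). In those with it in Cy3 alone miR-30b, miR-30c and miR-30d passed as lower, miR-30a passed as higher at 1.20 and miR-30e did not pass (14.6% of all probes lower, 71.3% higher).

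**Figure D3:**
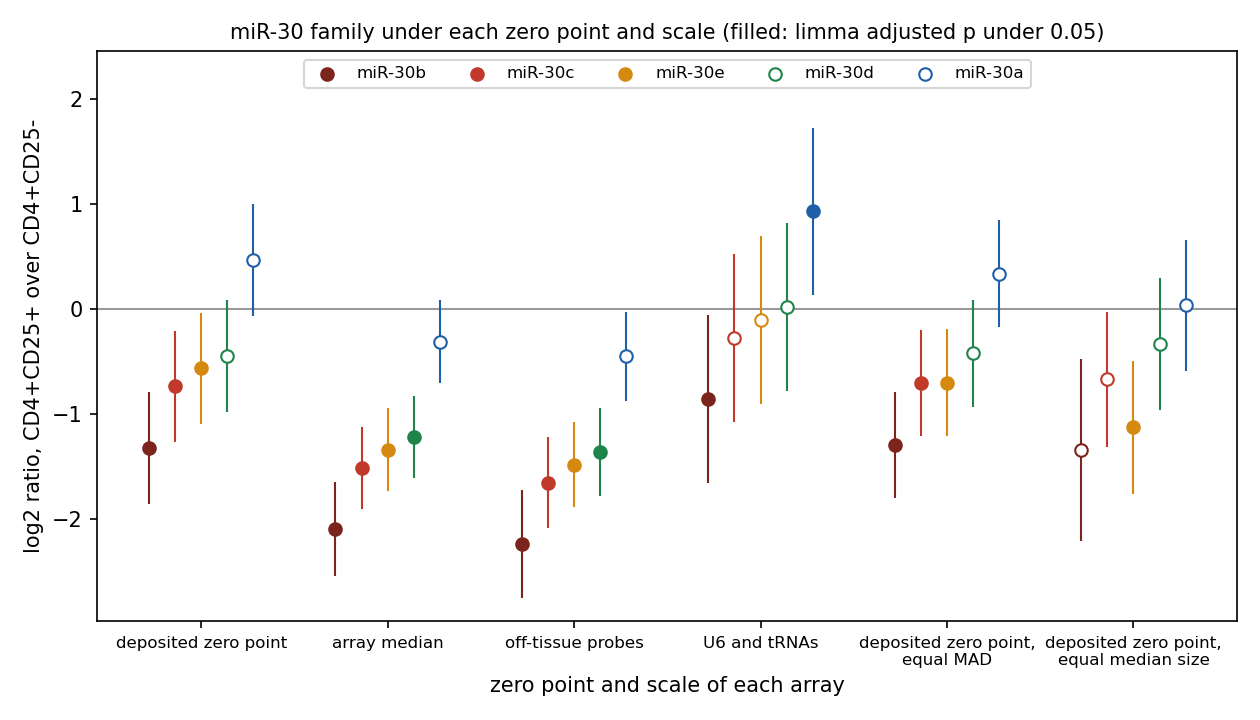
Log2 ratio, CD4+CD25+ to CD4+CD25- (y axis), of the 5 miR-30 probes under 4 zero points and 2 scalings of the arrays (x axis); points are means over 3 replicates, bars the widest 95% interval of the limma fit, and filled points passed at an adjusted p under 0.05. miR-30b is the lowest member under all 6 settings and miR-30a the highest, while the number of members lower is 3, 4, 4, 1, 3 and 1 from left to right.

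The 3 calls also depended on which arrays were fitted. The true pairing is not known, so a pair left out need not be 1 replicate. When a pair of opposite arrays was left out, in 9 ways, all 5 members kept their sign in each. Of all 171 miRNA probes, 0 to 14 passed as lower over the 9 ways. The count was 0 without arrays 3 and 2 and without arrays 5 and 6. miR-30b ranged from -1.60 to -1.05 and passed in 7 of 9; it did not without arrays 3 and 2 (-1.60, limma adjusted p = 0.0594) or without arrays 5 and 6 (-1.30, limma adjusted p = 0.0841). miR-30c passed in 5 of 9, and did not without arrays 1 and 2, 1 and 6, 3 and 2 or 5 and 6 (-0.84, -0.76, -0.90 and -0.69; limma adjusted p = 0.0611 to 0.0964). miR-30e passed in 1 of 9, without arrays 5 and 4 (-0.55, limma adjusted p = 0.0483), and ranged from -0.84 to -0.39 over the 9 with adjusted p up to 0.255.

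Other miRNAs tied to resting lymphocytes were read from the same fit. Of 24 such probes outside the family, 10 were lower, 2 higher and 12 did not pass, with a median of -0.48 (8.77% of all probes lower, 67.3% higher). Relative to the array median 20 of the 24 were lower and 0 higher in limma (22.8% of all probes lower, 5.26% higher). The list was chosen with earlier results of these data known, so these counts are a description and not independent support. The lowest were 2 probes of the blood-cell miRNA miR-142, named miR-142* at -1.29 and miR-142-as at -1.20, and miR-26b at -1.11 (limma adjusted p = 0.00569, 0.00569 and 0.00728), and the highest was miR-98, of the let-7 family, at 0.96 (limma adjusted p = 0.00868). Another miR-142 probe, miR-142-s, did not pass, at -0.27 (limma adjusted p = 0.347), with 3 arrays on either side of 0. Of the other blood-cell markers, miR-150 was lower at -1.03 and miR-181 at -0.69 (limma adjusted p = 0.00569 and 0.0159). miR-181b at 0.17 and miR-181c at 0.38 did not pass (limma adjusted p = 0.552 and 0.180). The miR-30b value of -1.33 lay below all 24 probes of the list. Fewer cells of a type and less RNA per cell cannot be told apart in bulk samples.

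Markers of other cells, and miR-155 as a marker of activated lymphocytes, were read from the same fit. miR-223, the myeloid marker, was higher at 4.12 ± 0.855 (SD, n = 3; limma adjusted p = 0.000103), above 0 on 6 of 6 arrays and at 2.93 to 4.99 on single arrays. It is the whole myeloid list here, 1 of 1. The endothelial miR-126 had 0.82 ± 0.156 and the erythroid miR-144 had 0.69 ± 0.870, both near the median probe of 0.82, and miR-155, of activated lymphocytes, had 1.23 ± 0.453. These passed as higher without centring, as did 67.3% of all probes. Relative to the array median miR-126, miR-144 and miR-155 stood at 0.050, -0.079 and 0.46 and did not pass (limma adjusted p = 0.0883 to 0.874). On that zero miR-223 passed, at 3.34 (limma adjusted p = 6.77e-06). The part of other cells in the miR-30 values was not tested.

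The probes whose ratios ran closest to the mean of the 5 members over the 6 arrays, by the root mean square difference of median-centred values, were miR-106a (0.229), let-7d* (0.305), miR-106b (0.347) and miR-29a (0.438). Their mean log2 ratios were -0.40, -0.37, -0.46 and -0.59. Member by member, the nearest of all other probes was never another miR-30 probe. The members are only 5 of the 171 miRNA probes, so most probes that could be nearest lie outside the family. The nearest probe was let-7c for miR-30b (0.406), miR-181 for miR-30c (0.246), miR-29a for miR-30d (0.167), miR-29c for miR-30e (0.396) and miR-181c for miR-30a (0.264). The closest 2 members were miR-30c and miR-30d, at 0.395, while the distance between miR-30a and its nearest member, miR-30e, was 1.10, more than its median distance of 0.908 to all other probes.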

How the data were processed

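Two-colour miRNA arrays compared total RNA of CD4+CD25+ and CD4+CD25- cells. The authors deposited 1 log ratio per probe and array, taken here as log2. For labelling, scanning, software, background correction and normalization, the sources used here give nothing. Signal over background is unknown, and the number of arrays limits the precision. Members were found by probe ID; the platform table names 1 of the 5 (miR-30e).

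Arrays with CD4+CD25+ in Cy3 were multiplied by -1. limma 3.58.1 under R 4.3.3 served as the main test: an intercept model (lmFit, eBayes) of 3 pair means per probe over 171 miRNA probes, in all 6 pairings. The dye effect was tested likewise on unturned values, with the 6-array fit as an alternative. Probes named are the 5 members, 30a*, the 4 nearest the family mean, each member's nearest, the 3 lowest and the highest of the resting list, and markers. U6 and tRNA centring used their mean. Scaling by median absolute values and leaving out miR-30a from the group difference were added after the data were seen. Members and lists were chosen with earlier results of these data known. The fit was tested on simulated data with equal numbers of probes raised and lowered and no offset between arrays. The real arrays differ from that in their medians and in the share of probes higher, so the simulation does not vouch for the calls.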

Additional observations from a re-analysis of the deposited data

Results flagged for a closer look

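The miR-30a ratio differed between the dye orientations: the mean with CD4+CD25+ cells in Cy5 minus that with them in Cy3 was -1.48 on the log2 scale (-0.28 against 1.20; limma adjusted p of the dye effect 0.0170). The sign was below 0 on 3 of 3 arrays and above 0 on 3 of 3. After median centring the gap was 0.27 (limma adjusted p = 0.627).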

How the results depend on the processing

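Counts of miRNA probes lower in CD4+CD25+ cells, 15 as reported, were 39 with median centring, 39 with off-tissue centring, 1 with U6 and tRNA centring, 4 with equal median absolute values, 7 and 25 with CD4+CD25+ in Cy5 or in Cy3 alone, and 88 with no array turned. Counts higher, 115 as reported, were 9 with median centring, 8 with off-tissue centring, 9 with equal median absolute values, 12 with CD4+CD25+ in Cy5 alone and 3 with no array turned. Leaving out a pair of opposite arrays gave 0 to 14 lower and 0 to 115 higher (limma; without arrays 3 and 2 both were 0, with 13 lower and 85 higher at an unadjusted p under 0.05, and without arrays 5 and 6 they were 0 and 2).

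Of the 5 members, 3 were lower as reported, 1 with U6 and tRNA centring, with equal median absolute values, with CD4+CD25+ in Cy5 alone and with no array turned, and 0 to 3 with a pair left out (limma; 0 without arrays 3 and 2, or 5 and 6, with 2 and 3 at an unadjusted p under 0.05). The family median of -0.57 moved to -1.34, -1.48 and -0.10 with the median, off-tissue and U6 and tRNA centrings and turned to 0.33 with no array turned; it ranged from -0.71 to -0.39 with a pair left out.

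Signs turned for miR-30a with median (-0.31) and off-tissue centring (-0.46), with CD4+CD25+ in Cy5 alone (-0.28) and with no array turned (-0.74); for miR-30d with U6 and tRNA centring (0.014); for miR-30e with CD4+CD25+ in Cy3 alone (0.099); and with no array turned for miR-30b (0.48), miR-30c (0.39) and miR-30d (0.33). The dye effect turned with median centring for miR-30a (0.14) and miR-30e (0.20). The difference of miR-30b and miR-30c from the other 3 members, -0.85, was -0.053 and -1.64 in the Cy5 and Cy3 orientations and 0.79 with no array turned, and ranged from -1.08 to -0.67 with a pair left out. Centring, turning and single orientations change these values by construction; the cause of the other changes was not tested. A robust fit and leaving out the noisiest probes changed no member's call; fitting 6 arrays as 6 values changed that of miR-30a (0.46, limma adjusted p = 0.0464) and the dye effect call of miR-30e (-0.67, limma adjusted p = 0.0101), which equal median absolute deviations changed too (-0.76, limma adjusted p = 0.0155). The labels do not say which arrays form a pair, so no single pairing was fitted as a block beside the 6 possible ones.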
